A study of Mus musculus with 24 samples.

Results

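Immediate early genes are switched on rapidly by a signal, without new protein synthesis. Here 10 of them were followed across sorted blood-forming cells of mice with and without Phf6. They were Fos, Fosb, Jun, Junb and Jund, which encode subunits of the dimeric transcription factor AP-1; Egr1, a zinc finger transcription factor; Atf3, a stress-inducible factor of the CREB/ATF family; Nr4a1, an orphan nuclear receptor; Ier2, an early response nuclear protein; and Dusp1, a phosphatase that switches off MAP kinases. Growth factors, cytokines, stress and tissue dissociation act through MAP kinases and cyclic AMP on factors already bound at these genes, and the transcripts are short-lived. In blood stem and progenitor cells AP-1 and EGR factors respond to cytokines and adhesion, and Egr1 is known for its part in stem cell quiescence. The 10 genes were taken by symbol from a table of 27179 genes, and all 10 were found. They were chosen by name with values of these libraries already known, the high HPC-1 values of litter 4 among them, so those values are given as a description without a test.

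The libraries came from bone marrow of 8 mice from 4 litters, with 1 mouse whose Phf6 was deleted and 1 control mouse with intact Phf6 per litter. Phf6 encodes an X-linked chromatin protein. Both genotypes carry the strain label Phf6lox/Y;Tie2-creTg/+, so all mice are labelled with a loxP-flanked Phf6 on their single X chromosome and a Cre transgene, and the labels do not say which component the control mice lacked. The Tie2 promoter drives Cre in endothelial cells and in the blood lineage that arises from them, so deletion was not restricted to the sorted cells. No treatment and no age were given. From each mouse 3 populations were sorted, stem cells (HSC), the multipotent progenitors below them (MPP) and a more restricted fraction (HPC-1), with antibodies to Kit, Sca-1, CD150 and CD48 after crushing of bones and removal of lineage-positive cells, giving 6 groups of 4 libraries. HSC and MPP libraries were made with a SMART-Seq kit and HPC-1 libraries with a stranded TruSeq kit, so levels in HPC-1 were not compared with levels in HSC or MPP. A mouse that supplies 3 libraries counts once in each group.

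Totals ran from 9658167 to 27786830 counts per library. Levels are given as CPM, counts relative to the library total scaled by the TMM factor of edgeR within each population. Phf6 itself lay between 20.98 and 80.22 CPM in the 12 libraries labelled deleted. In the 12 control libraries it lay between 98.88 and 244.1 CPM, without overlap. Among markers of the sort, Slamf1, which encodes CD150, ran from 9.077 to 87.99 CPM in HSC and reached at most 3.428 CPM in MPP. Cd48 ran from 167.9 to 223.8 CPM in HPC-1, a level not compared with the other populations because the kit differed. The library of MPP deleted replicate 3 stood apart, with 14710 genes detected, the fewest of the MPP libraries, and 56980 CPM summed over 13 mitochondrially encoded genes against 12510 to 31290 CPM in other MPP libraries. Replicate numbers are litter numbers throughout. The samples are bulk populations, in which fewer cells of a type and less RNA per cell cannot be told apart.

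In HPC-1 both mice of litter 4 had far higher levels of all 10 genes than the 6 mice of the other litters, whichever their genotype. In 10 of 10 genes both litter 4 libraries lay above all 6 others, where 10.6% of the 13907 genes tested in HPC-1 did so. As this pattern was known when the genes were chosen, nothing is read from that count. Among the AP-1 subunits, Fos read 1085, 291.1 and 354.2 CPM in control replicates 1 to 3 and 639.1, 336 and 141.8 CPM in deleted replicates 1 to 3, against 4316 CPM in control replicate 4 and 3802 CPM in deleted replicate 4. The lower of the pair in litter 4 was thus 3.505 times the highest other library. Fosb, a Fos relative whose product pairs with JUN proteins, read 2653 CPM in control and 2522 CPM in deleted replicate 4, against 25.42 to 439.8 CPM in the other libraries. Junb reached 764 and 780.5 CPM against 64.51 to 203.7 CPM, and Jund reached 562 and 468.7 CPM against 64.22 to 126.9 CPM. Jun stood apart by the smallest margin of the 10, at 1987 and 1409 CPM against 192.1 to 838.3 CPM. The 5 subunits therefore moved together in these libraries but by different amounts, with fitted log2 differences of litter 4 from the mean of litters 1 to 3 of 4.73 for Fosb, 3.36 for Fos, 2.96 for Junb, 2.64 for Jund and 2.13 for Jun.

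The largest ratios belonged to genes that were low elsewhere. Atf3 had 6544 counts in HPC-1 control replicate 4 and 4341 in deleted replicate 4. The other control replicates had 68, 54 and 0 counts and the other deleted replicates 47, 4 and 0. A count of 0 allows up to 0.181 CPM in control replicate 3 and 0.148 CPM in deleted replicate 3, by the unscaled library total. The limit was taken as 3 counts and covers counting error only. The lower litter 4 value, 208.4 CPM, was 84.22 times the highest other value, 2.474 CPM. Egr1 read 1255 and 1537 CPM in litter 4 and 7.828 to 62.11 CPM elsewhere, and Nr4a1 read 1171 and 1255 CPM against 3.177 to 61.05 CPM. Over the mean of the other 3 libraries of its genotype Atf3 was 161.1 times as high in the control and 329.4 times in the deleted litter 4 mouse. Among 13907 genes ranked by their fitted difference Atf3 was in place 1; its fitted 9.93 on the log2 scale rests on the libraries at 0 counts and has no exact size. Nr4a1 was in place 5, at 6.31, and Egr1 in place 8, at 5.95. Dusp1, the MAP kinase phosphatase, reached 708.3 and 562.1 CPM against 26.53 to 173.9 CPM. Ier2 reached 433.2 and 357.4 CPM against 56.66 to 132.7 CPM. The median difference of the 10 genes was 3.27 and that of all genes 0.01. In sum the 10 genes took 1.348% of all counts in HPC-1 control replicate 4 and 1.25% in deleted replicate 4, and 0.0613% to 0.3127% in the other 6 libraries.

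**Figure D1:**
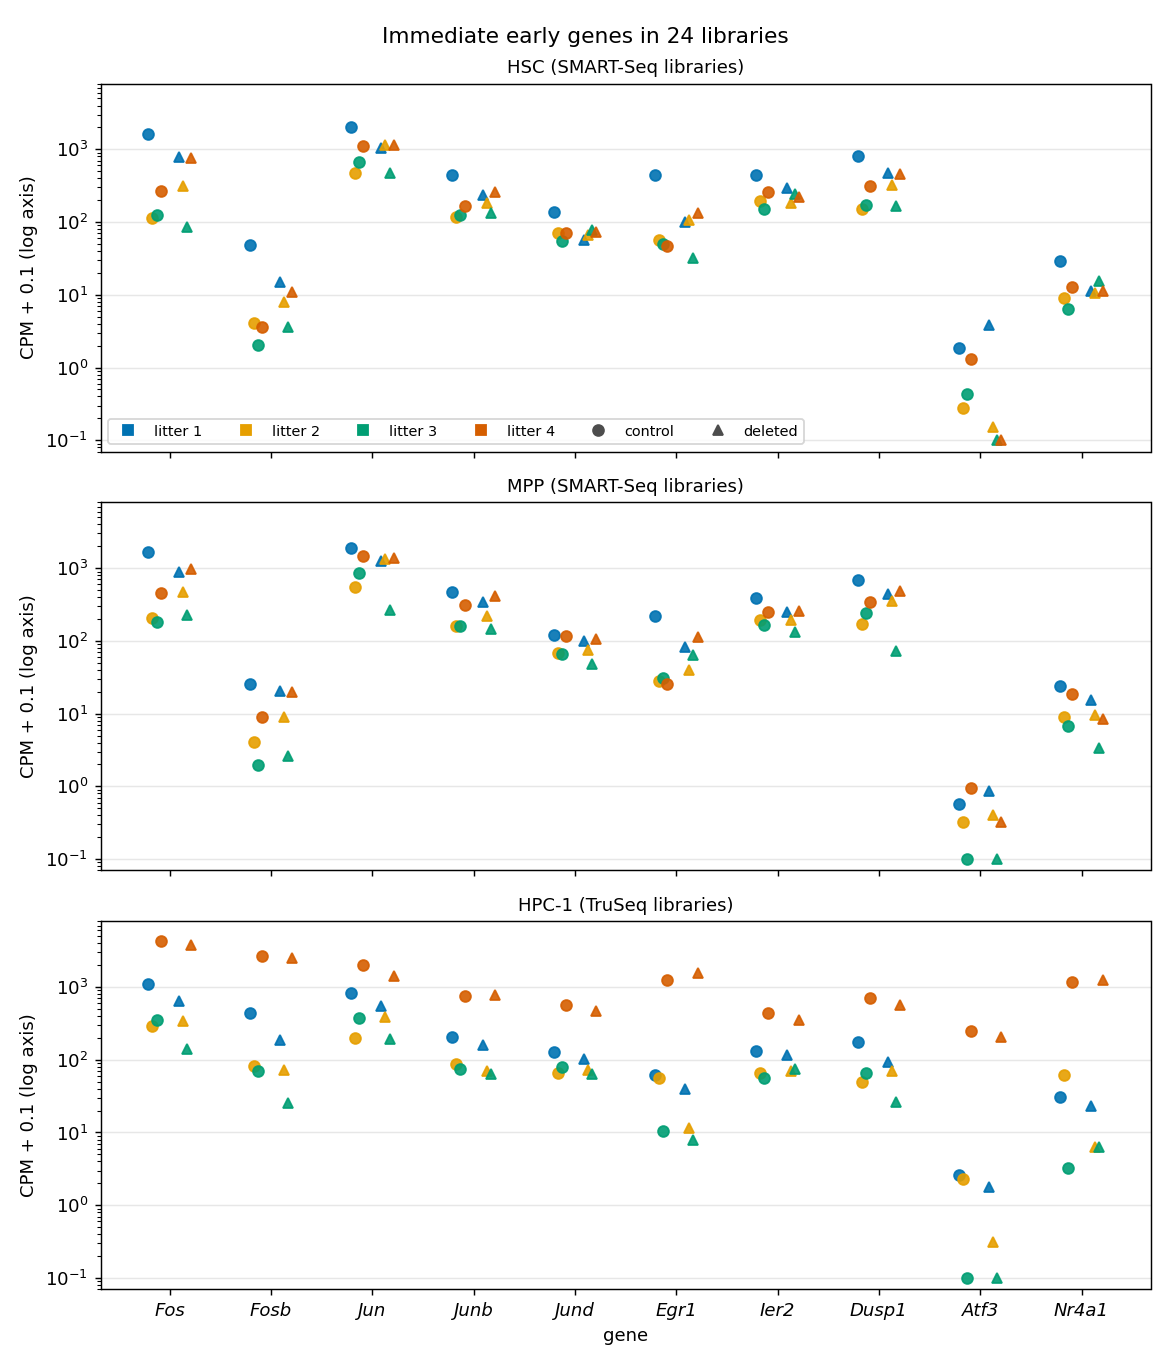
Level of each gene in each of the 24 libraries, as CPM plus 0.1 on a log axis, with 1 panel per sorted population, colours for litters, circles for control and triangles for deleted mice. In HPC-1 both litter 4 symbols lie above the others for all 10 genes, and in HSC and MPP they do not; HSC and MPP libraries were made with another kit than HPC-1 libraries.

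The sequences just before an annotated start show what short elements these genes carry there. A RefSeq table (GRCm38.p6) held a start for 8 of the 10 genes, without Egr1 and Ier2. For Fosb and Nr4a1 that start lies inside the annotated span of the gene, chr7:19302696-19310118 and chr15:101253902-101274795. The window of Nr4a1 therefore lies wholly within the gene, and that of Fosb in part. In the 250 bases before the start, on both strands, 5 motifs were searched: the cyclic AMP response element TGACGTCA, the AP-1 site TGANTCA, the EGR site GCGNGGGCG, TATAAA, and the serum response element (CArG box). The CArG box was in 0 of 8 promoters and in 1.47% of 32817 promoters of the same length, and the AP-1 site in 0 of 8 and in 6.75%. The cyclic AMP response element was in 1 of 8, Dusp1, at bases 143 to 136 before the start, and in 1.55% of all. The EGR site was in 2 of 8, Fosb and Nr4a1, and in 4.7% of all, and TATAAA in 1 of 8, Fos, and in 12.4%. Both EGR matches lie inside the annotated span of their gene. A match is a description of letters, and the absence of one says only that these letters are not in this window. The 4 promoters with a match are shown because they hold the elements named, 5′ to 3′ on the gene's strand, in lower case with the match in capitals. They are Fos (chr12:85473640-85473889, plus strand), Fosb (chr7:19310046-19310295, minus strand), Dusp1 (chr17:26508473-26508722, minus strand) and Nr4a1 (chr15:101266596-101266845, plus strand), the last with its match on the opposite strand.
Fos: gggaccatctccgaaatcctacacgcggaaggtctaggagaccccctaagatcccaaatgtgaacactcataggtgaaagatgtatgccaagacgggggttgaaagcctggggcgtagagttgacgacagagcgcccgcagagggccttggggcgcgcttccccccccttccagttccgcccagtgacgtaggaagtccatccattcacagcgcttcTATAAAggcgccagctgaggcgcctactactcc
Fosb: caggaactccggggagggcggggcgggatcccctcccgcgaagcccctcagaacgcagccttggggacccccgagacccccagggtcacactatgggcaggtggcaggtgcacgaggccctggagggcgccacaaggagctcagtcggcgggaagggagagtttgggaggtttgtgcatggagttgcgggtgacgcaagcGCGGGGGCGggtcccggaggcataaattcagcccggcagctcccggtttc
Dusp1: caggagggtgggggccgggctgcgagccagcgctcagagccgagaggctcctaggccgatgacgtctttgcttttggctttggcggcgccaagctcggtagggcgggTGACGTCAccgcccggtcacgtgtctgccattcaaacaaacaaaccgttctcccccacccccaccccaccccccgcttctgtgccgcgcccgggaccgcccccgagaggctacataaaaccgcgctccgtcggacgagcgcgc
Nr4a1: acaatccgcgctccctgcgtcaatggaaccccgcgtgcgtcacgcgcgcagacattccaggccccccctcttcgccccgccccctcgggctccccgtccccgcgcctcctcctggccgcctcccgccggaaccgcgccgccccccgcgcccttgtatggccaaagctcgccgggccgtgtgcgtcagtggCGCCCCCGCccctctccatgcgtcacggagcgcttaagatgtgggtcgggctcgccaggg

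Most other immediate early genes were high in the same 2 HPC-1 libraries. The counts here stand beside the 10.6% of all genes with both litter 4 libraries above the other 6, and are descriptions without a test. Of 38 other immediate early genes that passed the filter on low counts, 35 had both litter 4 libraries above the other 6, with a median log2 difference of 2.50. Klf2, a zinc finger transcription factor, read 281.7 and 170.8 CPM against 3.059 to 22.05 CPM. Tnfaip3, an inhibitor of NF-kB signalling, read 399.9 and 432.4 CPM against 20.53 to 40.82 CPM, and Btg2, an antiproliferative factor, 428.3 and 444.3 CPM against 30.01 to 68.61 CPM. These 3 were picked for the size of their difference after their values were seen. The 3 of 38 that overlapped were Myc, Zfp36l2 and Cebpd. Myc, a growth regulator, read 579.6 CPM in control and 362.5 CPM in deleted replicate 4, against 414.2 to 593.3 CPM elsewhere. Among relatives of the 10 genes the pattern was partial. In the AP-1 and CREB/ATF family 6 of 17 other members had it, among them Maff at 32.36 and 33.79 CPM against 0.8732 to 3.044 CPM and Fosl2, another Fos relative, at 143.8 and 152.1 CPM against 15.32 to 27.42 CPM. Creb1, whose product is present before a signal and is switched on by phosphorylation, read 160 and 133.6 CPM against 160.9 to 194.4 CPM, and was also picked after its values were seen. Of the EGR and NR4A relatives and their co-regulators 2 of 4 had it, Egr2 at 24.56 and 37.44 CPM and Nr4a2 at 111.5 and 103.3 CPM. Of 23 upstream kinases and serum response factors only Map3k8 and Map2k2 had it, a share near that of all genes, with a list median of 0.03.

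Signs of stress and of other cell types in those 2 libraries were measured beside this. Of 14 heat shock genes 6 had both litter 4 libraries above the other 6, where 10.6% of all genes tested did. Of the 14, 13 had a fitted difference above 0, with a median of 0.41. The list summed to 10130 and 8511 CPM against 6241 to 7883 CPM, of which Hsp90ab1 made 5264 and 5209 CPM. Hspa1a and Hspa1b were split, at 107.8 and 173.6 CPM in control replicate 4 and 8.016 and 6.816 CPM in deleted replicate 4. Of 13 mitochondrially encoded genes 0 had both litter 4 libraries above the other 6, and they summed to 14310 and 15690 CPM against 14800 to 18060 CPM. Of 12 neutrophil and monocyte markers, of which progenitors themselves express some, 0 did, but 12 of 12 had a fitted difference above 0, with a median of 0.95, and they summed to 4028 and 7006 CPM against 2345 to 5539 CPM. Nothing in the labels says what set litter 4 apart, and the part of handling, sorting time or cell makeup in its high values was not tested.

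**Figure D2:**
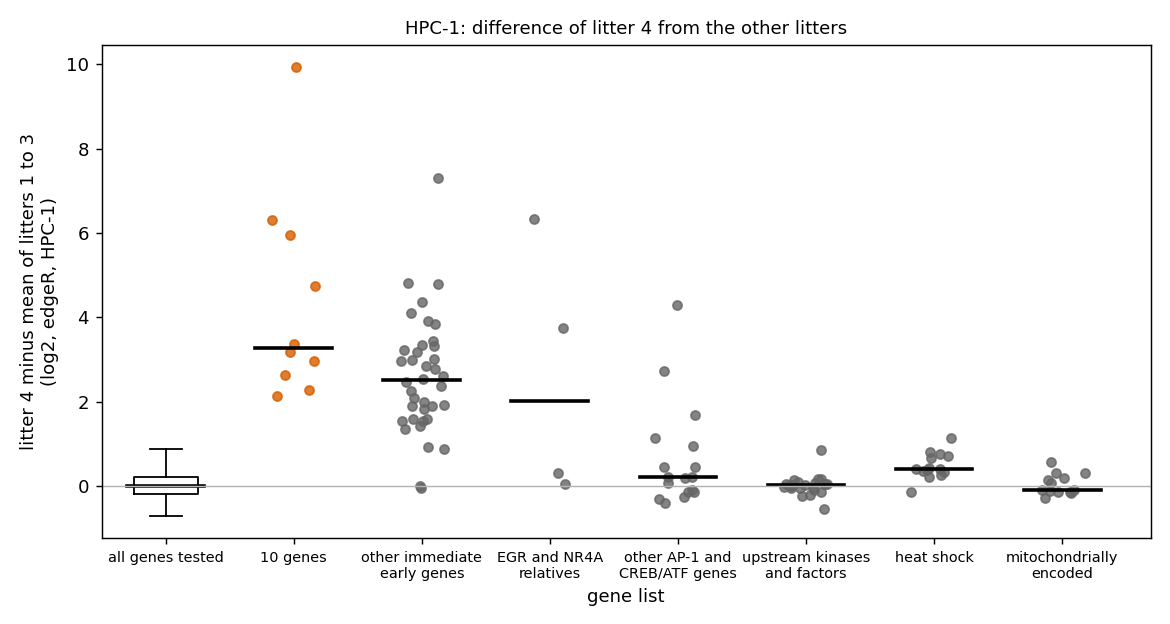
Fitted log2 difference of litter 4 from the mean of litters 1 to 3 in HPC-1, 1 point per gene and a bar at each list's median, with a box for all 13907 genes tested (box from the lower to the upper quartile, whiskers at the 5th and 95th percentiles). The 10 genes lie between 2.13 and 9.93, the highest being Atf3, which had 0 counts in 2 libraries, and upstream kinases and factors have a median of 0.03.

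HSC and MPP of the same litter 4 mice did not show this pattern. In 0 of 10 genes did both litter 4 libraries lie above the other 6 in HSC, where 4.74% of genes did, and likewise in 0 of 10 in MPP, where 5.69% did. In HSC, litter 4 was compared with the mean of the other litters by the quasi-likelihood test of edgeR, adjusted over all genes by Benjamini-Hochberg; 0 of 9 genes and 0% of 13693 genes passed an adjusted p of 0.05, and 726 genes had an unadjusted p under 0.05 and DESeq2 called 26. Atf3 was too low for the test in HSC and in MPP. The differences of the 9 genes in HSC ran from -0.25 to 0.69 on the log2 scale with a median of 0.01. In MPP 0 of 9 genes and 0% of 13806 passed by edgeR, with 701 genes at an unadjusted p under 0.05 and 38 called by DESeq2, and the median of the 9 was 0.56 against 0.01 for all genes. Junb read 313.2 and 419.3 CPM in MPP of litter 4, within the 146.3 to 473.9 CPM of the other litters, and differed by 0.68 ± 0.22 (SE; edgeR adjusted p = 0.8202). Fosb differed by 0.98 ± 0.37 and Jund by 0.56 ± 0.19, each with the same adjusted p in edgeR. Without MPP control replicate 3 Jund alone passed, at 0.63 ± 0.15 (edgeR adjusted p = 0.04281). Neutrophil and monocyte markers had fitted differences above 0 in litter 4 as well, 12 of 12 in MPP (median 1.83) and 11 of 12 in HSC (median 1.20). In either population 0 of 12 passed. Their sum exceeded all other litters only in the deleted mouse of litter 4. In MPP it was 13920 CPM in that mouse and 3270 CPM in the control, against 608.9 to 4182 CPM in the other litters. In HSC it was 11960 and 4440 CPM against 1118 to 8140 CPM. The 13 mitochondrially encoded genes had a median of -0.79 in MPP, with 0 of 13 above 0, and of 0.10 in HSC. The part of these in the values of the 10 genes was not tested.

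Instead, the mouse with the largest summed share of the 10 genes in HSC and MPP was the control of litter 1. By this share the order of the mice was nearly the same in both populations. Jun and Fos weigh most in it, with 29012 and 23446 of the 86413 counts in HSC control replicate 1. Each gene but Atf3 was highest in that mouse in both populations, but single genes did not keep the order below it. Egr1 in MPP was lowest in control replicate 4, at 25.62 CPM. In HSC the 10 genes took 0.5963% of all counts in control replicate 1, then 0.3162% in deleted replicate 4, 0.2967% in deleted replicate 1, 0.2286% in control replicate 4 and 0.228% in deleted replicate 2. In MPP the same 5 mice came first in the same order, at 0.5596%, 0.3891%, 0.3511%, 0.3161% and 0.2749%. The low end was held in both by control replicates 2 and 3 and deleted replicate 3, at 0.1187% to 0.1336% in HSC and 0.07717% to 0.1714% in MPP. The HSC and MPP libraries of a mouse share their animal and kit, so this order is a description. In HPC-1 the mice of litter 1 came next after litter 4, at 0.3127% and 0.1912%.

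**Figure D3:**
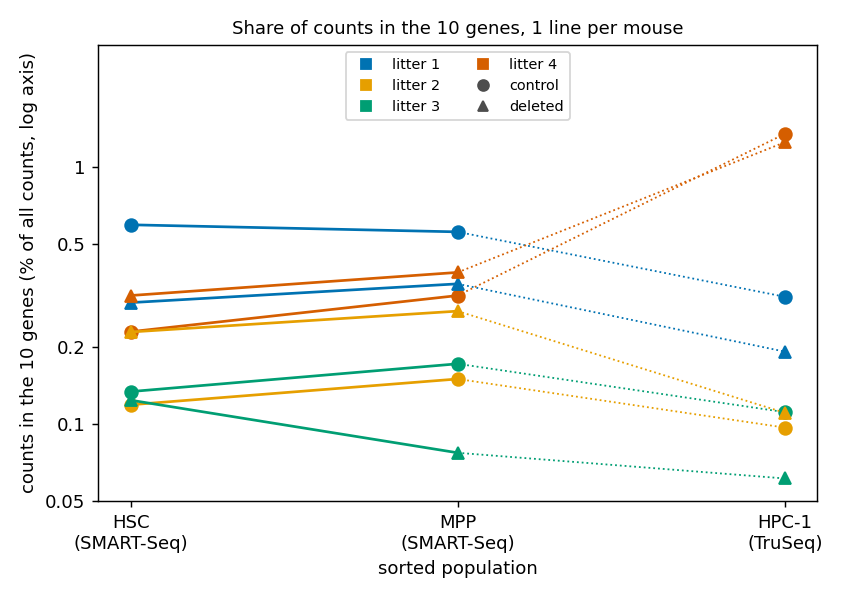
Percent of all counts that fell in the 10 genes, on a log axis, for each of the 8 mice in HSC, MPP and HPC-1; solid lines join HSC and MPP of a mouse, made with 1 kit, and dotted lines run to HPC-1, made with another kit. Control replicate 1 is highest in HSC and MPP, at 0.5963% and 0.5596%, and both litter 4 mice are highest in HPC-1, at 1.348% and 1.25%.

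The HSC library of that mouse differed in other ways too. Fos read 1627 CPM there, against 112.9, 123.3 and 269.5 CPM in the other control HSC libraries, and Egr1 read 442.4 CPM against 46.18 to 56.11 CPM. Fos and Egr1 in this library were thus far above the other controls, and Egr1 was also above every deleted HSC library, which read 31.62 to 134.1 CPM. Its 12 neutrophil and monocyte markers summed to 8140 CPM, led by S100a8 at 2657 CPM. That was the highest of the 4 controls, of which the lowest had 1118 CPM, but HSC deleted replicate 4 had more, at 11960 CPM. The MPP library of the litter 1 control summed to 2957 CPM, within the range of the control MPP libraries, 608.9 to 3289 CPM. In HSC of this mouse the 6 endothelial and stromal markers summed to 263.5 CPM, against 23 to 53.64 CPM in 7 other HSC libraries. Col1a1, a collagen of stromal cells, made 221.5 CPM of this and alone stood apart. Emcn, at 38.99 CPM, was below the 50.05 CPM of HSC deleted replicate 1. Kdr at 1.873 CPM and Cxcl12 at 1.11 CPM were below HSC deleted replicate 4, at 12.48 and 1.964 CPM. Cdh5 and Lepr had 0 CPM. The part that cells with such markers had in the levels of the 10 genes was not tested.

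Within each population most of the 10 genes went up and down together over the 8 libraries. The correlation of a gene with the mean of the other 9, on log2 CPM, was highest for Junb, at 0.962 (HSC), 0.963 (MPP) and 0.989 for the HPC-1 libraries. Fos stood at 0.931, 0.941 and 0.972. The loosest were Atf3 in HSC, at 0.474, where it is close to 0 counts, Egr1 in MPP, at 0.547, and Jund in HSC, at 0.621. In HPC-1 all 10 lay between 0.903 and 0.989, values that rest on the 2 litter 4 libraries. In HSC and MPP each gene but Atf3 was highest in control replicate 1, so those values lean in part on that mouse. These are descriptions over libraries that share mice and litters.

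Whether deletion of Phf6 changed these genes was asked in each population, and no change was detected. In HSC 0 of 9 genes passed in edgeR, where 0.0073% of genes did; 528 genes had an unadjusted p under 0.05, and DESeq2 called 19. All 9 fitted differences were below 0, from -0.67 to -0.01 with a median of -0.16, but their standard errors ran from 0.262 to 0.9313, and with litter as a block 4 of the 9 lay above 0. Fos read 789.8, 313.5, 85.71 and 755 CPM in deleted HSC of litters 1 to 4 and 1627, 112.9, 123.3 and 269.5 CPM in the controls, and the groups overlapped almost fully. Its difference was -0.13 ± 0.93 (SE; edgeR adjusted p = 0.9984). It was lower in the deleted mouse in litters 1 and 3 and higher in litters 2 and 4. Egr1 in HSC read 101.3, 106.1, 31.62 and 134.1 CPM in deleted mice, a difference of -0.67 ± 0.78 from controls (edgeR adjusted p = 0.9984). Both directions turned without the control of litter 1, when Fos differed by 1.53 ± 0.64 and Egr1 by 0.88 ± 0.40, neither passing in edgeR (adjusted p = 0.9985). The 12 neutrophil and monocyte markers summed to 2139 to 11960 CPM in deleted and 1118 to 8140 CPM in control HSC, and their part in these values was not tested.

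In MPP 0 of 9 genes passed in edgeR, where 0.029% did; 1117 genes had an unadjusted p under 0.05 and DESeq2 called 105. The median was -0.09 and the range -0.66 to 0.35. Fos read 875.7, 468.9, 225.6 and 963.3 CPM in deleted MPP and 1655, 206.9, 183 and 462 CPM in controls, so that it was higher in the deleted mouse of 3 litters and lower in litter 1. The lowest value of the range was that of Nr4a1, at 15.5, 9.571, 3.305 and 8.268 CPM in deleted and 23.91, 8.935, 6.715 and 18.76 CPM in control MPP, a difference of -0.66 ± 0.50 (edgeR adjusted p = 0.6699) with overlapping groups. Its lowest deleted value, 3.305 CPM, came from deleted replicate 3, whose MPP library stands apart. Leaving out 1 replicate moved the Nr4a1 difference from -1.04 to -0.31. The same 12 markers summed to 1714 to 13920 CPM in deleted and 608.9 to 3289 CPM in control MPP.

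In HPC-1 the spread set by litter 4 left little room for a test. There 0 of 10 genes passed in edgeR, where 0.0647% did; 694 genes had an unadjusted p under 0.05 and DESeq2 called 76. Standard errors ran from 0.8969 to 2.606, so a difference of several-fold in either direction could not have been detected. With litter as a block, which compares the mice of a litter with each other, standard errors fell to 0.08128 to 0.8472 and all 10 fitted differences lay below 0, with a median of -0.51, but again 0 of 10 passed, where 0.431% of genes did. Junb read 161.5, 69.09, 64.51 and 780.5 CPM in deleted and 203.7, 88.22, 75.19 and 764 CPM in control HPC-1 of litters 1 to 4. It was lower in the deleted mouse of litters 1 to 3 and slightly higher in litter 4, with a blocked difference of -0.22 ± 0.08 (edgeR adjusted p = 0.4461). Fos was lower in the deleted mouse in 3 of 4 litters, with -0.51 ± 0.32 under the block. Egr1 read 39.95, 11.5 and 7.828 CPM in deleted and 62.11, 56.24 and 10.3 CPM in control replicates 1 to 3, and its difference changed from 0.21 ± 2.17 without to -0.70 ± 0.54 with the block. Without both litter 4 libraries 9 of 10 genes were lower, with a median of -0.62, and 0 passed.

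**Figure D4:**
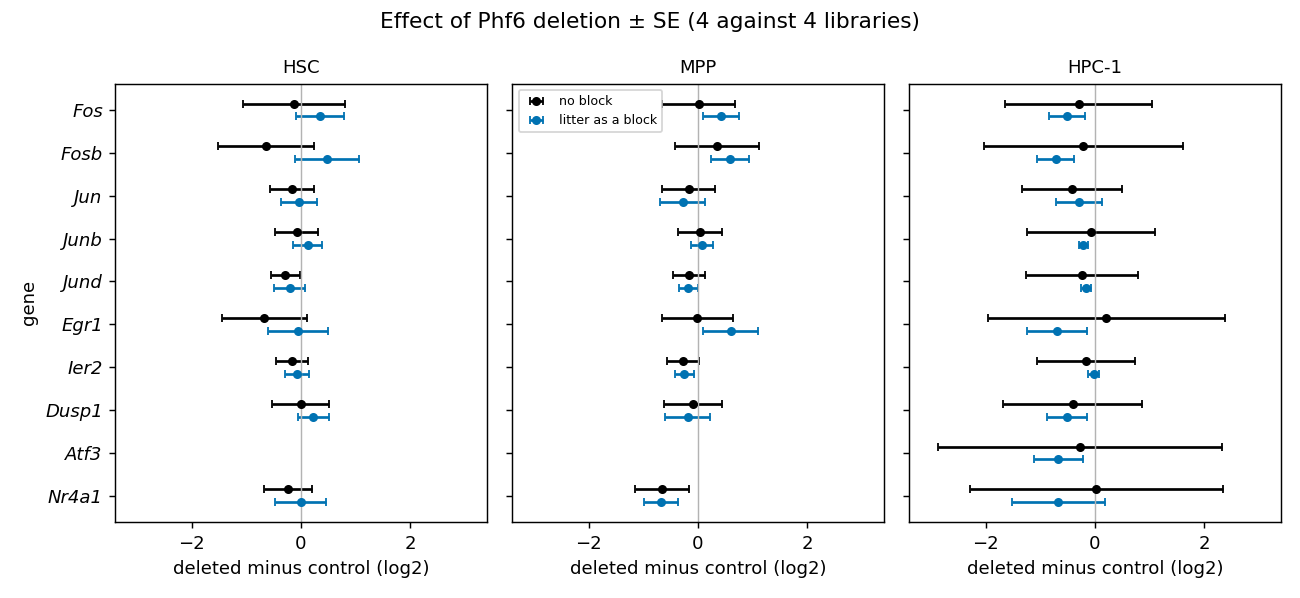
Deleted minus control on the log2 scale with 1 standard error to each side, from edgeR on 4 against 4 libraries, for each gene and population, without (black) and with (blue) litter as a block; Atf3 was too low for a test in HSC and MPP. In HPC-1 the standard errors run from 0.8969 to 2.606 without the block and from 0.08128 to 0.8472 with it.

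The difference between populations in the effect of deletion was tested as an interaction. For MPP against HSC, HPC-1 against HSC and HPC-1 against MPP, 0 of 10 genes and 0% of genes passed in edgeR in each case. Genes at an unadjusted p under 0.05 numbered 417, 518 and 668, and DESeq2 called 2, 12 and 7. The medians over the 10 genes were 0.06, 0.02 and -0.19, with standard errors up to 2.142, 3.608 and 4.145.

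Between MPP and HSC of the same mice, levels of 3 genes differed in control mice once each mouse was compared with itself. Egr1 was lower in MPP than in HSC in 4 of 4 control mice, at 217.1, 28.39, 30.69 and 25.62 CPM in MPP and 442.4, 56.11, 49.83 and 46.18 CPM in HSC of litters 1 to 4. The ranges overlap because control replicate 1 is high in both populations. The step within a mouse was much alike, from -1.025 to -0.690 on log2 of CPM plus 0.5, with CPM scaled separately in each population. With the mouse as a block Egr1 changed by -0.86 ± 0.10 (edgeR adjusted p = 0.0006085). Fos was higher in MPP in 4 of 4 mice, at 1655, 206.9, 183 and 462 CPM against 1627, 112.9, 123.3 and 269.5 CPM, a blocked difference of 0.59 ± 0.13 (edgeR adjusted p = 0.01513). Junb was higher in 4 of 4, at 473.9, 159, 158.1 and 313.2 CPM against 448, 119, 124 and 166 CPM, a blocked difference of 0.47 ± 0.12 (edgeR adjusted p = 0.0332). So in the blocked fit Egr1 fell and Fos and Junb rose from HSC to MPP in these mice. The other AP-1 subunits did not pass. Jun was higher in MPP in 3 of 4 control mice, and Fosb and Jund each in 2 of 4. With the block 3 of 9 genes passed, where 15.5% of all genes did, and without it 0 of 9 passed, where 8.84% did. Without the block Egr1 differed by -0.95 ± 1.15, Fos by 0.27 ± 1.18 and Junb by 0.40 ± 0.57. Leaving out 1 mouse at a time from the blocked fit, Egr1 passed in 4 of 4 fits, Fos in 2 and Junb in 1. Fos did not pass without mouse 2 (edgeR adjusted p = 0.07328) or mouse 4 (0.08024), and Junb did not pass without mouse 2 (0.1005), mouse 3 (0.05738) or mouse 4 (0.114), the mice numbered by litter.

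In deleted mice 0 of 9 genes passed in edgeR, without the block, where 1.41% of genes did, or with it, where 2.11% did. Fos was again higher in MPP in 4 of 4 mice, with a blocked difference of 0.64 ± 0.23 (edgeR adjusted p = 0.227), and Junb in 4 of 4, with 0.43 ± 0.18 (edgeR adjusted p = 0.2916). Egr1 was lower in MPP in 3 of 4 deleted mice, at 82.93, 39.94, 62.99 and 113.7 CPM against 101.3, 106.1, 31.62 and 134.1 CPM. The exception was replicate 3, whose MPP library stands apart, and the blocked difference was -0.22 ± 0.35. The difference of this step between genotypes was not past the threshold for Egr1, at 0.65 ± 0.40 with the mouse as a block (edgeR adjusted p = 0.9736).

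**Figure D5:**
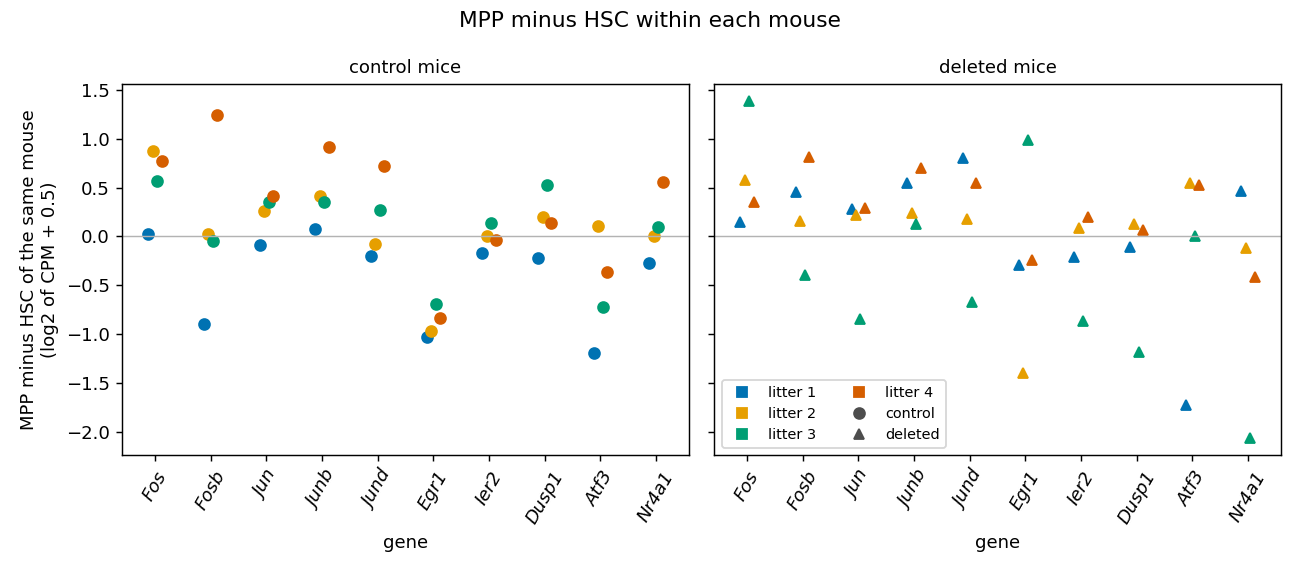
MPP minus HSC of the same mouse on log2 of CPM plus 0.5 for the 10 genes, with control mice in the left panel, deleted mice in the right one, and colours for litters. CPM were scaled separately in each population. Egr1 lies below 0 in all 4 control mice, between -1.025 and -0.690, and Fos and Junb lie above 0 in all 8 mice.

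Among other genes of the class and its pathway, shares not far from the 8.84% of all genes differed between MPP and HSC of control mice. Of 38 other immediate early genes 3 rose and 2 fell in edgeR without the block. Dusp5, a phosphatase of ERK, rose from 4.093 to 6.215 CPM in HSC to 13.82 to 18.53 CPM in MPP, by 1.67 ± 0.25 (edgeR adjusted p = 0.001063). Csrnp1, a nuclear protein, rose by 1.00 ± 0.17 and Zfp36l2, an mRNA decay factor, by 0.57 ± 0.13. Gadd45g, a stress response gene, fell from 9.852 to 22.12 CPM to 2.824 to 5.719 CPM, by 2.17 on the log2 scale (edgeR adjusted p = 0.001111). Nfkbia, the inhibitor of NF-kB, changed by -0.45 ± 0.12, a call lost without MPP control replicate 1 or 3 or HSC control replicate 2, 3 or 4 (edgeR adjusted p from 0.0638 to 0.1056). Of 23 upstream kinases and serum response factors 3 rose, Map3k1 by 1.37 ± 0.23, Map3k8 by 1.25 ± 0.27 and Elk3 by 0.51 ± 0.13, and 0 fell. The call on Elk3 was lost without MPP control replicate 1 or 2 or HSC control replicate 2, 3 or 4 (edgeR adjusted p from 0.06125 to 0.1103). Of 15 other AP-1 and CREB/ATF genes Atf1 alone changed, by -0.43 ± 0.13 (edgeR adjusted p = 0.04947), which DESeq2 size factors moved to 0.05081 and which was lost without any 1 of the 8 libraries (0.05435 to 0.1323). The median difference was 0.20 over the 38 genes, 0.12 over the 23, -0.13 over the 15 and -0.01 over all genes. In deleted mice, where 1.41% of all genes passed, Dusp2, 1 of the 38, rose by 0.94 ± 0.20 and Map3k1, 1 of the 23, by 1.36 ± 0.25. Neither call was stable: Dusp2 passed in 1 of 8 fits with a library left out, the one without MPP deleted replicate 3 (edgeR adjusted p otherwise from 0.05877 to 0.1339). Map3k1 passed in 2 of 8, without MPP deleted replicate 3 or HSC deleted replicate 4 (otherwise from 0.05033 to 0.08589). No gene of these 3 lists passed in edgeR for deletion in any population.

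Per kilobase of exon, Jun was the most abundant of the 10 in HSC, with a median over 8 libraries of 336 CPM per kilobase. Dusp1, Ier2, Fos and Junb followed, at 163.1, 151.6, 139.3 and 95.36 CPM per kilobase, then Egr1 and Jund at 25.63 and 24.9, Nr4a1 at 4.497, Fosb at 1.558 and Atf3 at 0.1272. The ranges of these neighbours overlap widely, with Fos alone running from 40.95 to 777.2 CPM per kilobase, so the order within Dusp1, Ier2, Fos and Junb is not clear of the spread. MPP had Jun first again, at 408.2, and Fos second, at 222.4 CPM per kilobase. In HPC-1 Fos came first at 237.3, before Jun at 146.3 and Junb at 67.87, and Fosb stood sixth at 35.68 CPM per kilobase. These ranges overlap widely too, with the litter 4 libraries included. Fos ran from 67.76 to 2062, Jun from 60.28 to 623.6 and Fosb from 6.731 to 702.5 CPM per kilobase. Atf3 was last in all 3 populations, and Jun, Fos, Junb, Ier2 and Dusp1 filled the first 5 places in each.

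The genes whose levels most resembled those of the 10 were sought over all 24 libraries, by correlation of log2 CPM centred within each population with the mean of the 10, among 12159 genes. The 10 closest were Klf2 at 0.947, Btg2 at 0.945, Zfp36 at 0.941, Ppp1r15a at 0.931, Dusp2 at 0.919, Klf6 at 0.916, Rgs1 at 0.903, Nfkbiz at 0.892, Atf4 at 0.891 and Id1 at 0.878, where the median gene stood at 0.012. Of these 8 were in the gene lists used here, and Rgs1 and Id1 were not. Without both HPC-1 litter 4 libraries 6 of the 10 stayed among the closest, led by Zfp36 at 0.902 and Ppp1r15a at 0.901, and Klf4, Il1b, Cd300ld and Pilrb1 came in.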

How the data were processed

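RNA of 3 sorted bone marrow populations was sequenced as 80 bp paired reads from 8 mice, 24 libraries in all. The authors deposited raw counts per gene, with featureCounts and the mm10 build listed in the submitters' processing notes; no source used here names the aligner or the strand setting. The deposited counts carried Entrez gene numbers, of which 25275 were named from RefSeq GRCm38.p6 and 18 from GENCODE, and 1886 stayed unnamed. Each sample's own table was identical to its column of the series table. Levels (CPM) are counts relative to the library total after the filter on low counts, scaled by a TMM factor fitted within each population. They differ from counts over the plain total. Fos in MPP deleted replicate 3 had 2321 of 12784013 counts and reads 225.6 CPM. MPP minus HSC steps of a mouse thus join levels that were scaled separately. Per kilobase values divide these levels by the deposited exon length. Shares of all counts and the limits for 0 counts use the plain total. Tests used edgeR 4.0.16 in R 4.3.3: TMM scaling, a filter on low counts (filterByExpr, minimum count 10), the robust quasi-likelihood test, and Benjamini-Hochberg adjustment over all genes at 0.05. Standard errors (SE) were derived from that test, as the size of the fitted log2 difference divided by the square root of its F statistic. DESeq2 1.42.0, its size factors, no filter, blocks and leaving out each replicate were alternatives. Blocks rest on labels: a number marks a litter, and HSC and MPP with the same mouse label are 1 animal. Deviations of same-litter libraries correlated by 0.00 to 0.40, and those of the same mouse by 0.02 to 0.41. Pairs of unlike number correlated by -0.24 to 0.14 across litters and by -0.35 to 0.12 across mice. In HSC the same-litter pairs, at 0.00 to 0.06, lay within the -0.11 to 0.07 of the other pairs, so the litter pairing is not visible there. The edgeR scripts were tested on simulated data. The genes and lists were chosen with earlier results of these data known. Named genes were all 10, of each list up to 4 called genes per direction, and the 10 closest by correlation; the list genes named for litter 4 in HPC-1 were picked after seeing values. The mice are separate animals, so errors include biological spread, and counting error is small beside it except for Atf3.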

Additional observations from a re-analysis of the deposited data

Results flagged for a closer look

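In each group of 4 libraries the highest or lowest value of a gene was compared with the rest by Dixon's ratio, the gap to the nearest value divided by the group's range, at the 95% limit for 4 values. Of 60 groups 23 passed. Chance passes about 1 in 20 independent groups, but the 10 genes vary together and the HPC-1 litter 4 values were known when the genes were chosen, so the ratios are descriptions and their number is not read against that rate. In HPC-1 control replicate 4 was the highest for Fosb (0.856), Jund (0.875), Egr1 (0.958), Atf3 (0.990) and Nr4a1 (0.950). In HPC-1 deleted replicate 4 was the highest for Fos (0.864), Fosb (0.935), Junb (0.864), Jund (0.903), Egr1 (0.979), Ier2 (0.841), Dusp1 (0.875), Atf3 (0.992) and Nr4a1 (0.986). In HSC control replicate 1 was the highest for Fos (0.897), Fosb (0.957), Junb (0.857) and Egr1 (0.975), and in MPP the same mouse was the highest for Egr1 (0.974). Deleted replicate 3 was the lowest for Jun in HSC (0.834) and in MPP (0.882) and the highest for Nr4a1 in HSC (0.854). Atf3 was highest in HSC deleted replicate 1 (0.986), where it had 74 counts and the other deleted HSC libraries 1, 0 and 0.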

How the results depend on the processing

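The count of the 10 genes past the threshold changed with the settings tried in 2 comparisons. For MPP against HSC in control mice it was 0 without and 3 with the mouse as a replicate block, and 1 to 4 when that block was kept and a mouse left out. For litter 4 in MPP, leaving out 1 replicate gave 0 to 1. In every other comparison tested it stayed at 0 under all alternatives run. Directions of single genes were less stable, and the cause was not tested. With the litter as a replicate block Fos in HSC turned to 0.35 and Egr1 in HPC-1 to -0.70, and without both litter 4 libraries Egr1 in HPC-1 stood at -1.11. Leaving out 1 replicate moved the deletion difference in HSC from -0.47 to 1.53 for Fos and from -0.97 to 0.88 for Egr1, in MPP from -0.29 to 1.16 for Fos and from -1.04 to -0.31 for Nr4a1, and in HPC-1 from -2.02 to 1.09 for Fos, from -4.11 to 3.21 for Egr1 and from -1.52 to 1.13 for Junb. For MPP against HSC in control mice without the block the ranges were -2.37 to 0.62 for Egr1, -0.89 to 1.94 for Fos and 0.00 to 1.06 for Junb, and in deleted mice Egr1 reached 0.18 under the block without replicate 2. The difference of that step between genotypes ran from -0.89 to 2.08 for Egr1 with 1 replicate left out and no block. The block changed no other call on the 10 genes. Leaving out libraries together, the block without a mouse and the 22-library correlations were chosen after seeing the data.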
